A study of Mus musculus with 16 samples.

Results

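The genes described here are the nuclear genes of the mitochondrial respiratory chain and ATP synthase in mouse macrophages. They were taken by name: protein-coding genes of the GENCODE M21 annotation whose symbol begins with Ndufa, Ndufb, Ndufc, Ndufs or Ndufv (complex I), Sdha to Sdhd (complex II), Uqcr or Cyc1 (complex III), Cox4i or Cox5 to Cox8 (complex IV), or Atp5 (complex V), and that reached at least 1 CPM (a read count scaled to the size of its library) in at least 4 libraries. Of 54838 gene identifiers in the files, 99 carried such a name and 92 met the minimum: 45 for complex I, 8 for complex II, 9 for complex III, 13 for complex IV and 17 for complex V. The names also take in 14 genes that are not subunits (Ndufaf1 to Ndufaf8, Sdhaf1 to Sdhaf4, Cox7a2l and Atp5s), which leaves 78 subunits. The 7 genes under the minimum were Ndufa4l2, Cox4i2, Cox6b2, Cox7b2, Cox8b, Cox8c and a further identifier named Atp5o that stood at 0 in every library. Cox7a1 lay just inside, with at least 1 CPM in 6 libraries. It met the minimum through the DMSO group, at 1.05 to 1.46 CPM, against 0.393 to 0.682 CPM in TNFα. Its falls against DMSO are therefore not independent of the minimum.

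The study measured total RNA of cultured bone marrow-derived macrophages by sequencing, in 16 libraries. The cells were grown in L929-conditioned medium from bone marrow of mice whose genotype label is B6.129P2-Apoetm1Unc/J, an allele that disrupts the apolipoprotein E gene, and whose strain label is C57BL/6J; every group shares this genotype. Each of the 4 groups held 4 libraries: DMSO; TNFα at 50 ng/ml for 24 h; TMP195 at 5 µM for 1 h before the same TNFα; and TPCA-1 at 500 nM for 1 h before the same TNFα. TMP195 inhibits class IIa histone deacetylases and TPCA-1 inhibits the kinase IKK2, which activates NF-κB; the series title places HDAC9 upstream of IKK in vascular inflammation. The labels give neither the animals' age nor whether replicates were separate animals or cultures, so p-values measure only how far these libraries spread, which may be technical. They do not say whether the cells given TNFα alone also received DMSO.

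Oxidative phosphorylation passes electrons from NADH (complex I) or succinate (complex II) through ubiquinone to complex III, and by cytochrome c to complex IV, which reduces oxygen. Complexes I, III and IV pump protons across the inner mitochondrial membrane, and complex V lets them return while it makes ATP. Complexes I, III, IV and V are built from subunits of both genomes, whereas complex II is encoded in the nucleus alone. In macrophages, strong inflammatory stimuli are known to raise glycolysis and, in several settings, to lower mitochondrial respiration, with succinate and itaconate as signals tied to complex II.

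Libraries held 7489066 to 31596572 reads counted on genes, so that 3 reads correspond to 0.0949 to 0.401 CPM. Replicate 2 of TPCA-1 + TNFα was the shallowest and stood apart: 44.0% of its reads were unmapped, against 4.0% to 7.11% in the other 15 libraries. Mapped reads not counted for any gene, which matched several places, several genes or none, made up 9.41% of all its reads, against 16.1% to 17.4%. Unmapped reads are part of that total, so their larger part in this library by itself lowers the 9.41%. The 92 members were higher there than in the other TPCA-1 libraries by a median of 0.22 log2, with a median of 0.12 over the shortest 20% of all genes and of -0.14 over the longest. Comparisons with this group are therefore given with and without that library, and the part of its read makeup in them was not tested. All 9 macrophage markers were tested and their sum was 12568 to 25986 CPM, led by Lyz2 at a mean of 11335 CPM. The defining markers S100a9, Ly6g and Elane (neutrophils), Hbb-bs (red cells) and Col3a1 (stroma) were at 0 throughout; Cpa3, the highest mast cell marker, had a mean of 0.0071 CPM, and Zbtb46, the highest dendritic cell marker, 0.582 CPM. Csf3r led the neutrophil list at 59.4 CPM, Ighm the lymphocyte list at 29.4 CPM and Pf4, which macrophages also make, the platelet list at 1246 CPM.

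The promoters of Cox5a, Atp5b, Atp5g1 and Uqcrh are shown because these genes were among the members that differed in all 3 comparisons involving TPCA-1, with all 16 libraries used. The comparisons share the TPCA-1 libraries, and without replicate 2 of that group Atp5b passed the test only against DMSO. Each promoter is the RefSeq window (build GRCm38.p6) from 250 bases before the start, ended before the first transcribed base of RefSeq or GENCODE. It is written 5′ to 3′ along the gene. Capitals mark matches, on either strand, to CCAAT, to GGGCGG (SP1) or to CCGGAAG (an ETS family motif, read here as its complement). Cox5a, which encodes a matrix-side subunit of complex IV, is at chr9:57520982-57521231 on the plus strand. Atp5b, the catalytic β subunit of complex V, is at chr10:128083057-128083272 on the plus strand. Atp5g1, which encodes 1 of the isoforms of its proton-carrying c-ring, is at chr11:96075671-96075881 on the minus strand. Uqcrh, the hinge subunit of complex III, is at chr4:116075072-116075320 on the minus strand.

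Cox5a: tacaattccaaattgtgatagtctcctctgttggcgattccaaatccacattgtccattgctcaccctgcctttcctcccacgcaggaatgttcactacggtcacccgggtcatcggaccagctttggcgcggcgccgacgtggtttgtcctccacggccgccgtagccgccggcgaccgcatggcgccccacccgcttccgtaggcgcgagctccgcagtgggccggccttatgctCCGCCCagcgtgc

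Atp5b: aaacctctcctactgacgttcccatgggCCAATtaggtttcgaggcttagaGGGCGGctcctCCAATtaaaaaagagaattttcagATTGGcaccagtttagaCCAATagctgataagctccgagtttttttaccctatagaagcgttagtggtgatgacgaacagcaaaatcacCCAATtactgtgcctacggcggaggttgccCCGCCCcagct

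Atp5g1: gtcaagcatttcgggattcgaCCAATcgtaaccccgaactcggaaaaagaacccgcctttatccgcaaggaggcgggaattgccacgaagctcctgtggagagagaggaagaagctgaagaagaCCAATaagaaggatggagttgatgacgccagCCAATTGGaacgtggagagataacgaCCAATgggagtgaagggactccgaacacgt

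Uqcrh: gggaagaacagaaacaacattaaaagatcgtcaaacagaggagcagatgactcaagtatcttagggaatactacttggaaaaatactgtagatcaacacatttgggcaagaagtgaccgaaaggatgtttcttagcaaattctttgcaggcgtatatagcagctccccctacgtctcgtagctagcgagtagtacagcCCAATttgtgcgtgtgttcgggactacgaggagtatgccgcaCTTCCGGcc

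The Atp5b and Atp5g1 windows each held 5 matches to CCAAT, that of Uqcrh 1 and that of Cox5a none. Atp5b had matches to GGGCGG that begin 199 and 45 bases before the RefSeq start, and Cox5a 1 that begins 13 bases before it. Uqcrh had an ETS match that begins 10 bases before it. None of the 4 printed windows held a match to GCGCANGCG (NRF1, a regulator of many respiratory genes), AAGATGGCG (YY1), AAGGTCA (the estrogen-related receptors), TATAAA or the NF-kB consensus.

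Across the 75 members with a RefSeq window of 300 bases (250 before and 50 after the start), matches on either strand were counted and set beside all 27018 promoters. GCGCANGCG was found in 23 members (30.7%, against 6.36% of all promoters), CCGGAAG in 20 (26.7% against 9.09%) and AAGATGGCG in 7 (9.33% against 1.49%). AAGGTCA was in 8 (10.7% against 4.66%), GGGCGG in 35 (46.7% against 35.6%) and CCAAT in 32 (42.7% against 37.8%). TATAAA was in 6 (8.0% against 14.1%) and the NF-kB consensus in 7 (9.33% against 8.23%). Member windows also had more G and C, with a median of 58.7% against 52.7%, a difference that by itself changes how often such letters occur. CCAAT was added to the search after the sequences had been viewed. A match describes letters and is neither a site nor a cause.

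Levels differed widely within each complex. Expressed per kilobase of the principal transcript, so that genes can be compared, complex I ran from Ndufa4 at a mean of 408 CPM per kb down to Ndufb2 at 1.18. Ndufa4 is named for complex I but is found with complex IV. Ndufb2, an accessory subunit, shares 145 exon bases with a read-through gene on its strand, and its listed principal transcript is 4371 bases long, so that its level per kilobase is uncertain. Complex II ran from Sdhb, the iron-sulphur subunit, at 115 to Sdhaf3, an assembly factor, at 1.30. Complex III ran from Uqcrh at 355 to Cyc1 (cytochrome c1) at 51.4, and complex V from Atp5e, the ε subunit of the central stalk, at 654 to Atp5s at 4.70. Complex IV held the highest and some of the lowest levels: Cox6a1 at 798 and Cox5a at 705, against 4.10 for Cox6a2 and 1.99 for Cox7a1, the isoforms of heart and skeletal muscle.

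**Figure D1:**
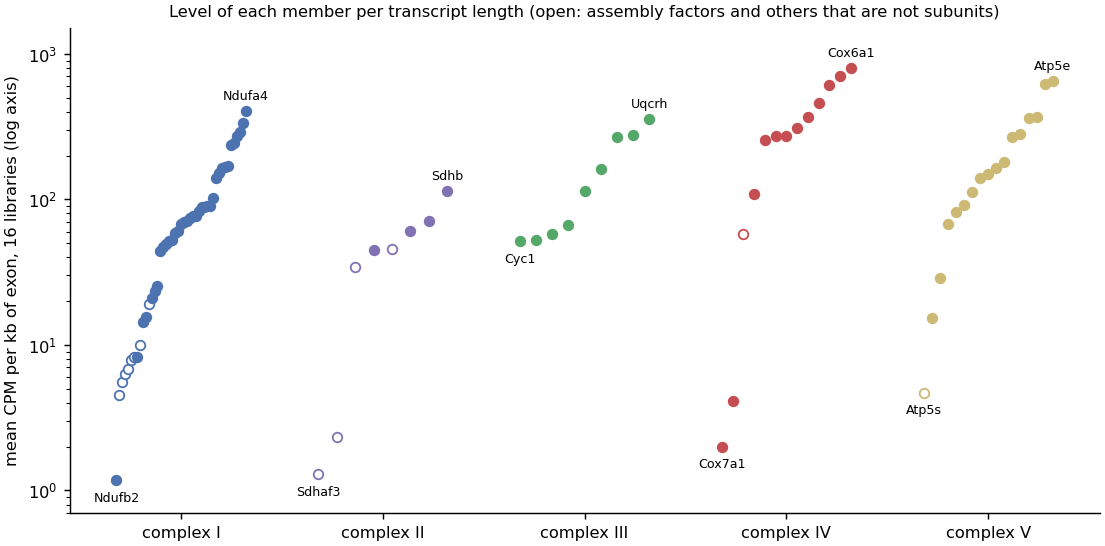
Mean level of each of the 92 members over 16 libraries, in CPM per kilobase of the principal transcript on a log axis, by complex; each point is 1 gene, open where it is not a subunit. Complexes I, II, IV and V each reach from over 100 CPM per kb down to under 5, while the complex III genes lie between 51.4 and 355.

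Isoform pairs showed the same contrast. Cox4i1 had 460.4 CPM per kb while its low-oxygen counterpart Cox4i2 missed the minimum, and Cox8a had 609 while Cox8b missed it. The 3 genes for the identical mature c-ring subunit stood at 28.8 (Atp5g1), 67.6 (Atp5g2) and 368 (Atp5g3) CPM per kb. The listed transcript of Atp5g1 has 4715 bases against 731 for Atp5g2, so that its level per kilobase is uncertain; without scaling to length Atp5g1 had 136 CPM and Atp5g2 49.4 CPM. Of the complex I core, Ndufs8 had 76.6, Ndufv2 74.6, Ndufs3 67.8 and Ndufs7 141, whereas Ndufs1 had 21.1 and Ndufv1 14.3. Ndufab1, the mitochondrial acyl carrier protein, had 8.27 CPM per kb; it has 1 named pseudogene, and reads shared with such a copy may have been left uncounted. The same holds for Uqcrh, Atp5c1, Atp5k and Atp5l, which have 1 or 2 named pseudogenes each.

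The summed level of all members was 10027 to 11100 CPM in DMSO, 10374 to 11090 in TNFα and 9865 to 10498 in TMP195 + TNFα. It was 11611, 14024, 11271 and 12099 CPM in TPCA-1 + TNFα. Every TPCA-1 library was above every other library, and the other 3 groups overlapped. The TPCA-1 mean was 116% of the DMSO mean, and 110.1% without replicate 2.

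The higher sum was unevenly spread over the complexes. Complex IV was 2596 ± 113 CPM in DMSO (mean ± SD, n = 4 in each group) and 3264 ± 439 in TPCA-1 + TNFα, complex III 1011 ± 56.3 and 1224 ± 159 and complex V 2994 ± 132 and 3482 ± 267. Complex I was 3275 ± 140 and 3523 ± 355, and complex II 718 ± 33.5 and 757 ± 54.7. Relative to DMSO the TPCA-1 means were 126% for IV, 121% for III, 116% for V, 108% for I and 105% for II. TNFα alone was at 107% of DMSO for IV, 102% for III, 101% for V, 99.3% for I and 95.6% for II. Relative to TNFα the TPCA-1 means were 119% for III, 118% for IV, 115% for V, 110.4% for II and 108% for I. Without replicate 2 they were 117% of DMSO for IV, 114% for III, 113% for V, 103% for II and 102% for I, and 110.2%, 112%, 112%, 107% and 103% of TNFα in that order. For complexes III, IV and V every TPCA-1 library was above every library of the other groups. For complexes I and II the TPCA-1 range overlapped with those of DMSO and TNFα but lay above that of TMP195 + TNFα. The lowest TPCA-1 library had 3279 CPM for I and 694 CPM for II, and the highest TMP195 library 3210 and 680 CPM. In bulk RNA, fewer cells of a type and less RNA per cell cannot be told apart, and these sums are shares of the counted reads. As sums they are dominated by the most abundant genes, Cox5a, Cox6a1 and Atp5b among them.

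**Figure D2:**
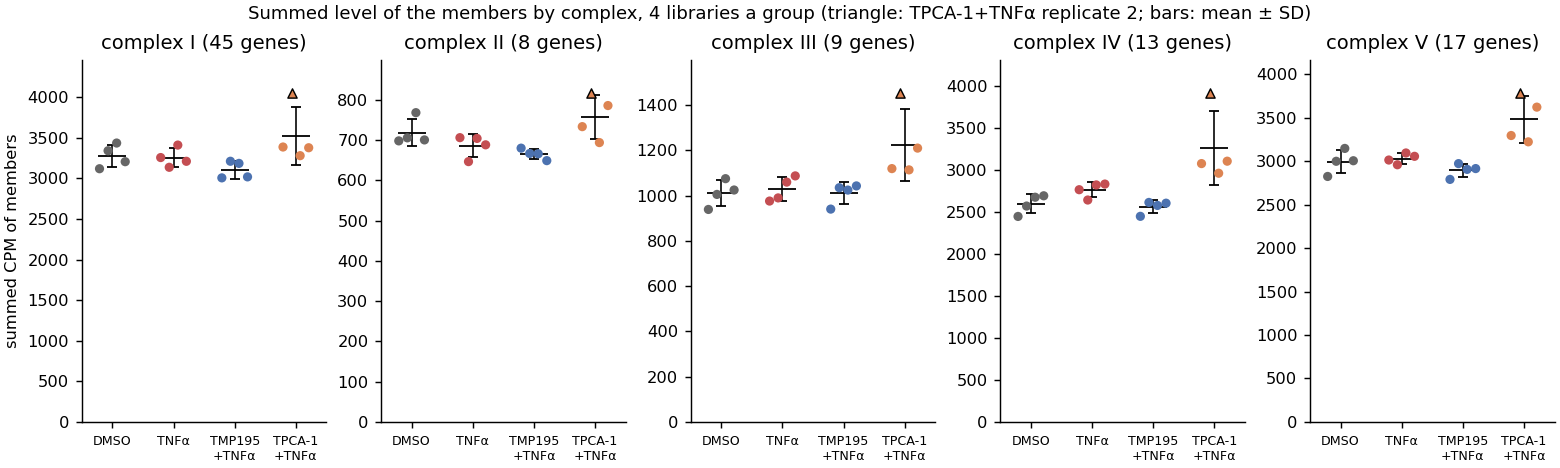
Summed CPM of the members of each complex in every library, by group (bars: mean ± SD, 4 libraries a group; triangle: TPCA-1 + TNFα replicate 2). For complexes III, IV and V all 4 TPCA-1 + TNFα libraries lie above the other 12, and replicate 2 of that group is the highest library in all 5 panels.

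Single genes were tested with edgeR's quasi-likelihood test over all 12612 genes that passed the count filter, with Benjamini-Hochberg adjustment; a change was called at an adjusted p under 0.05. All 92 members passed that filter. Fold changes are log2 values ± SE. The comparisons share groups: TNFα alone is the reference of both inhibitor comparisons, and likeness between them is therefore not read as a result.

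TNFα left most of these genes near their level in DMSO. Of 92 members 1 rose and 2 fell, 1.09% and 2.17% of them, against 10.9% and 12.4% of all genes tested, and the median change of the members was 0.01 log2 against 0.00 for all genes. Ndufaf7, a methyltransferase needed to assemble complex I, fell; Cox7a1 fell; Cox5a rose. No member of complexes II, III or V passed the test in this fit, and 7 members had an unadjusted p under 0.05.

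Ndufaf7 read 10.1, 11.2, 9.66 and 8.69 CPM in DMSO and 6.48, 5.99, 6.41 and 6.08 CPM in TNFα. The groups did not overlap, and the fall was -0.67 ± 0.12 (edgeR adjusted p 0.000481), which kept its call when any of the 16 libraries was left out. Cox5a read 373, 375, 316 and 436 CPM in DMSO and 461, 439, 425 and 516 CPM in TNFα. Replicate 4 of DMSO was above replicate 3 of TNFα, so the groups overlapped by these libraries; the change was 0.30 ± 0.10 (adjusted p 0.0430), and the call remained in 8 of 16 leave-outs, with an adjusted p of 0.146 without DMSO replicate 3. Cox7a1 read 1.05, 1.18, 1.12 and 1.46 CPM in DMSO and 0.682, 0.393, 0.493 and 0.579 CPM in TNFα. These levels are a few times that of 3 reads. The groups did not overlap, the change was -1.17 ± 0.41 (edgeR adjusted p 0.0499), and 4 of 16 leave-outs kept the call. Cox7a1 met the member minimum through its DMSO libraries, so this fall is not independent of how it was chosen.

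Replicate numbers paired the libraries of DMSO, TNFα and TMP195 + TNFα, as described with the processing. With the number as a block, 1 member rose and 4 fell, against 15.1% and 16.9% of all genes. The added genes were Sdhaf4, which helps insert FAD-bearing Sdha into complex II, at -0.47 (adjusted p 0.00645) and Atp5s, at -0.48 (adjusted p 0.0193). Without the block their adjusted p was 0.0531 and 0.102. Sdhaf4 read 36.0, 44.2, 45.2 and 31.5 CPM in DMSO and 30.1, 31.1, 29.4 and 22.7 CPM in TNFα, with no overlap. Ndufv3, an accessory subunit of the NADH-oxidising arm, was called lower in 1 of 16 leave-outs, that of TPCA-1 replicate 2, at -0.26 (adjusted p 0.0487).

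Of the members that did not pass the test, the highest by complex were 0.21 ± 0.10 for Ndufaf3, 0.09 ± 0.08 for Sdhaf2, 0.14 ± 0.16 for Uqcrq, 0.11 ± 0.18 for Cox7b and 0.19 ± 0.11 for Atp5g1. The lowest reached further: -0.26 ± 0.12 for Ndufv3, -0.47 ± 0.17 for Sdhaf4, -0.08 ± 0.24 for Uqcrb, -0.58 ± 0.31 for Cox6a2 and -0.48 ± 0.20 for Atp5s. None of the catalytic and core subunits named next passed the test. Ndufs1 was at -0.12 ± 0.12, Ndufv1 at 0.19 ± 0.16, Sdha at -0.08 ± 0.12, Cyc1 at 0.12 ± 0.18, Uqcrfs1, the Rieske protein, at 0.02 ± 0.08, Atp5b at 0.16 ± 0.13 and Atp5a1 at 0.00 ± 0.10. For Uqcrfs1 the group means were 86.5 ± 1.60 CPM in DMSO and 87.7 ± 2.77 CPM in TNFα.

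**Figure D3:**
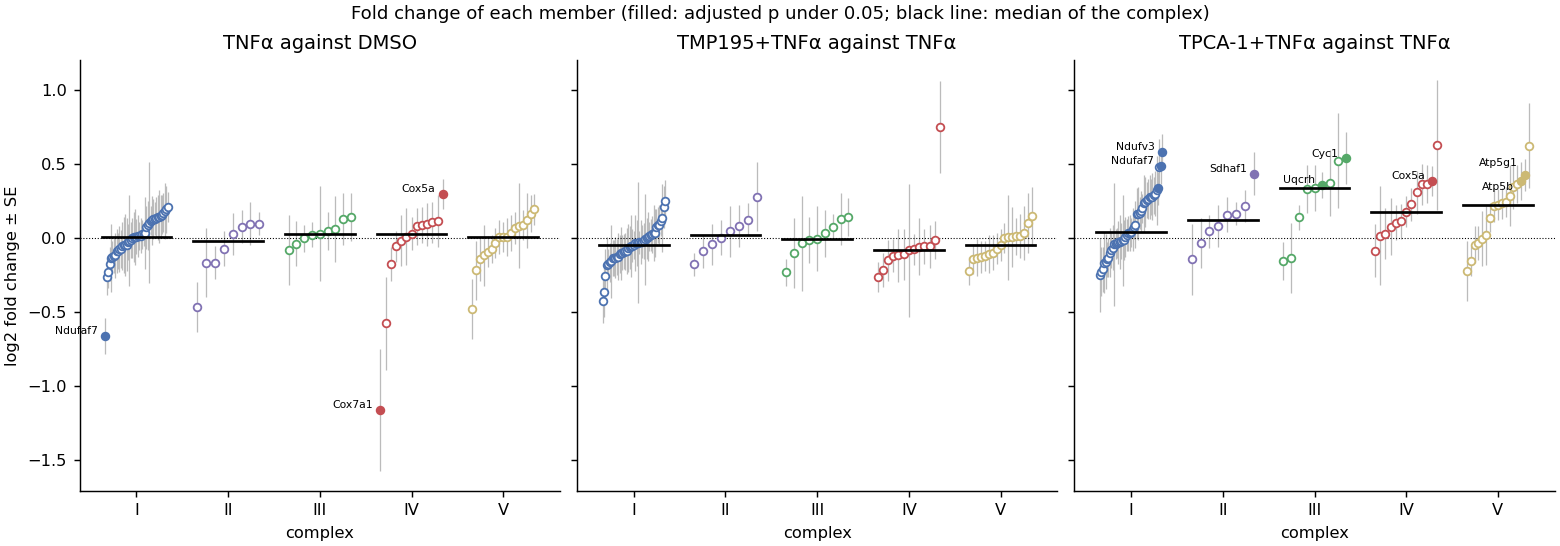
Log2 fold change ± SE of every member in 3 comparisons, by complex; each point is 1 gene, filled where it passed an adjusted p under 0.05, and the black line is the median of the complex. TNFα against DMSO is centred near 0 in all complexes, and TPCA-1 + TNFα against TNFα has a median of 0.34 in complex III, 0.22 in complex V and 0.18 in complex IV.

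TMP195 given before TNFα, set against TNFα alone, called none of the 92 members in edgeR, where 2.95% of all genes were higher and 3.0% lower. DESeq2 also called 0, and 7 members had an unadjusted p under 0.05 in edgeR. The median member change was -0.05 log2 (all genes 0.02), and 30 of 92 members were above 0, in complex IV 1 of 13. The exception was Cox6a2, the muscle isoform, at 0.75 ± 0.31 (adjusted p 0.191), from 1.88 to 2.30 CPM in TNFα and 2.62 to 5.35 CPM with TMP195. A missed threshold does not show that levels were alike.

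With the replicate number as a block, 0 members rose and 2 fell (6.91% and 6.56% of all genes). Cox5a read 461, 439, 425 and 516 CPM in TNFα and 392, 377, 372 and 392 CPM with TMP195, with no overlap, and its change of -0.26 had an adjusted p of 0.0315 with the block and 0.147 without. Ndufs8, which carries iron-sulphur clusters near the quinone site of complex I, read 68.7, 64.5, 74.0 and 89.6 CPM in TNFα and 51.6, 50.4, 54.3 and 64.7 CPM with TMP195. The groups touched only where replicate 4 with TMP195 exceeded replicate 2 of TNFα, each number was lower with TMP195 than in TNFα, and the blocked change was -0.42 (adjusted p 0.0416, against 0.114 without the block).

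The other extremes did not pass either fit. They were Ndufaf6 (0.25 ± 0.14), Sdhaf3 (0.28 ± 0.23), Uqcrc2, a core protein of complex III (0.14 ± 0.13), and Atp5g2 (0.14 ± 0.20) at the upper end. At the lower end stood Sdhaf2 (-0.18), Uqcrh (-0.23 ± 0.09) and Atp5j2, a subunit of the membrane sector (-0.23 ± 0.10). Uqcrh read 185 to 192 CPM in TNFα and 143 to 178 CPM with TMP195, which do not overlap, with an adjusted p of 0.155.

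TPCA-1 given before TNFα gave 9 higher members and no lower one against TNFα alone. The 9 are 9.78% of members, close to the 9.67% of all genes that were higher, while 9.72% of all genes were lower. The shift was broader than the calls: 64 of 92 members were above 0 and their median was 0.15 log2, against 52.3% of all genes and a median of 0.02. The called genes included Ndufv3 and Ndufaf7 (complex I), Sdhaf1 (complex II), Uqcrh and Cyc1 (III), Cox5a (IV), and Atp5b and Atp5g1 (V). Median changes by complex were 0.04 for I, 0.12 for II, 0.34 for III, 0.18 for IV and 0.22 for V.

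Without replicate 2, 5 members were higher and 0 lower (7.20% and 8.09% of all 12764 genes then tested), and the member median fell to 0.08. Those 5 were Ndufv3, Ndufaf7, Uqcrh, Cox5a and Atp5g1. Cyc1, Atp5b and Sdhaf1 were among those that lost their call, and the medians by complex became 0.03, 0.01, 0.17, 0.11 and 0.14 in the same order. With that library aside, the 3 remaining numbers of TPCA-1 correlated above 0.1 with those of TNFα and of DMSO. With the number as a block in that fit 16 members were higher and 0 lower (14.9% and 15.1% of all genes). Cyc1 (0.35, adjusted p 0.00116) and Atp5b (0.30, adjusted p 0.0180) were then called, and Sdhaf1 was not (0.33, adjusted p 0.0609). Some markers of other cells moved with the same comparison. The 7 stromal and endothelial markers, led by Pecam1, summed to 15.7 to 40.1 CPM with TPCA-1 against 3.86 to 7.51 CPM in TNFα. The neutrophil list summed to 51.5 to 79.6 against 127 to 161 CPM, and the platelet and red cell list to 483 to 1065 against 1269 to 1694 CPM. Of the 9 macrophage markers 4 were lower with TPCA-1 than in TNFα and 1 was higher, with a median of -0.61 log2. Csf1r, the receptor for the growth factor of macrophages, was at -1.10 ± 0.20 and Fcgr1 at -2.44 ± 0.24. The part of any of these markers in the members' values was not tested.

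Ndufv3 read 71.0, 66.9, 81.7 and 67.5 CPM in TNFα and 91.4, 139, 91.3 and 108 CPM with TPCA-1. Every TPCA-1 library was higher, with replicate 2 the highest, and the change was 0.58 ± 0.12 (edgeR adjusted p 0.00339), or 0.43 ± 0.10 (adjusted p 0.00823) without that library. Ndufaf7 read 6.48, 5.99, 6.41 and 6.08 CPM in TNFα and 8.85, 7.84, 8.27 and 9.82 CPM with TPCA-1. Here replicate 2 was the lowest of its group, and the change was 0.48 ± 0.12 with it and 0.52 ± 0.12 without. Ndufaf7 in TPCA-1 lay between TNFα and DMSO and did not differ from DMSO beyond its spread (-0.18 ± 0.12, adjusted p 0.269).

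Cox5a read 461, 439, 425 and 516 CPM in TNFα and 609, 626, 529.6 and 633 CPM with TPCA-1. The groups did not overlap; the change was 0.38 ± 0.10 (adjusted p 0.0139), 0.35 ± 0.11 without replicate 2, and the call was lost in 1 of 16 leave-outs (adjusted p 0.0579 without TNFα replicate 3). Atp5g1 read 117, 128, 136 and 146 CPM in TNFα and 158, 201, 164 and 183 CPM with TPCA-1. These did not overlap either, with a change of 0.42 ± 0.11 (adjusted p 0.00974). Uqcrh read 192, 191, 185 and 185 CPM in TNFα and 242, 259, 210.2 and 253 CPM with TPCA-1. Its change was 0.36 ± 0.09 (adjusted p 0.0108), without overlap, and for both genes every leave-out kept the call.

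Other calls were lost when single libraries were left out. Atp5b read 453, 469, 502 and 543 CPM in TNFα and 522, 701, 537 and 801 CPM with TPCA-1, with replicates 2 and 4 far above the others and some overlap. Its change was 0.38 ± 0.13 (adjusted p 0.0447), and adjusted p was 0.120 without replicate 2 and 0.190 without replicate 4 of TPCA-1. Cyc1 read 57.7, 68.9, 72.7 and 81.1 CPM in TNFα and 73.6, 139.7, 87.6 and 107 CPM with TPCA-1; the change was 0.53 ± 0.18 (adjusted p 0.0411), and 0.34 (adjusted p 0.170) without replicate 2. Sdhaf1 read 4.51 to 5.75 CPM against 6.40 to 8.65 CPM, without overlap, at 0.43 ± 0.14 (adjusted p 0.0447), and 0.34 (adjusted p 0.118) without replicate 2.

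**Figure D4:**
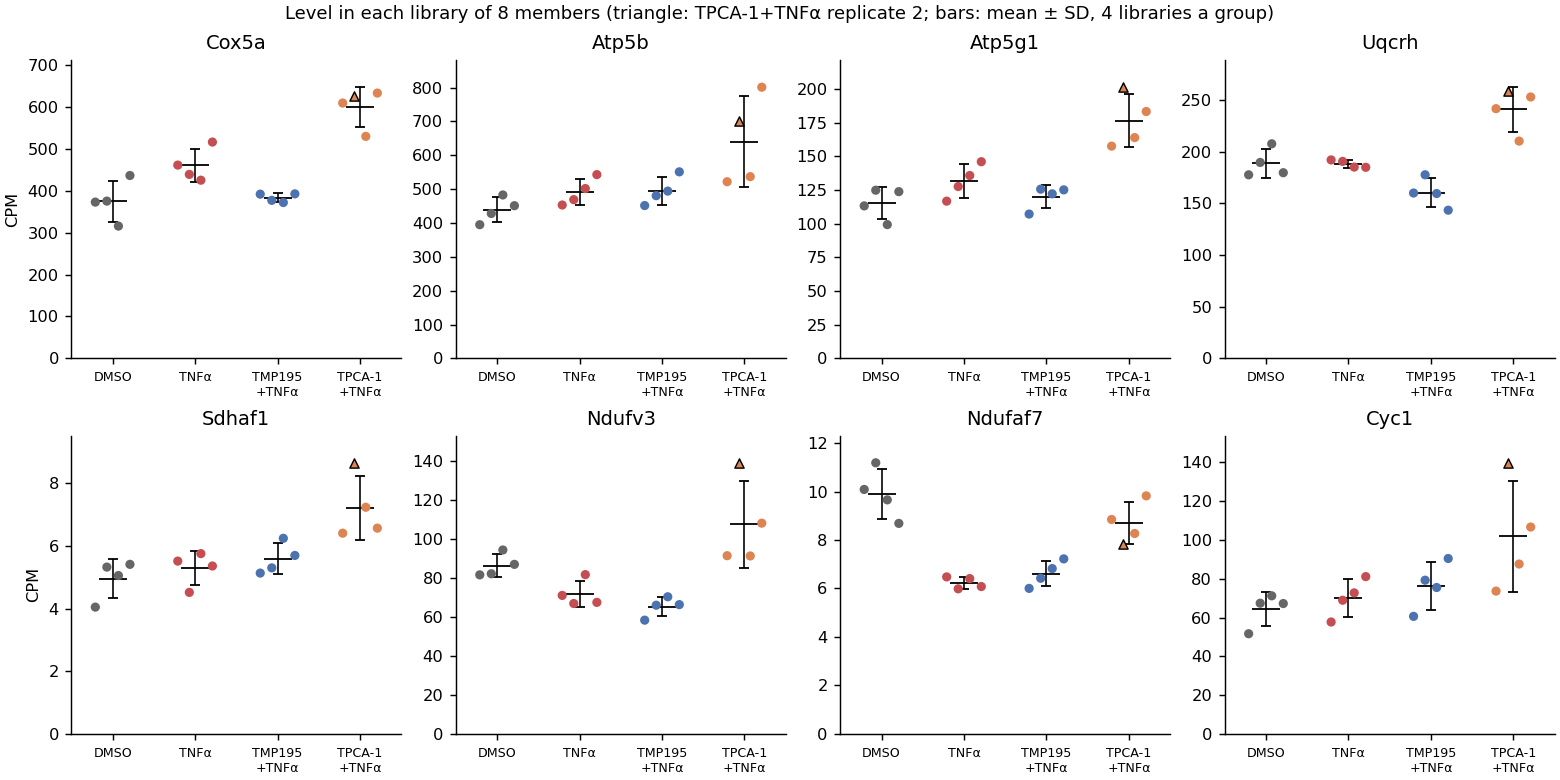
CPM of 8 members in each library by group (Cox5a, Atp5b, Atp5g1, Uqcrh, Sdhaf1, Ndufv3, Ndufaf7 and Cyc1), with bars at the group mean ± SD; a triangle marks replicate 2 of TPCA-1 + TNFα. Cox5a, Atp5g1, Uqcrh, Sdhaf1 and Ndufv3 in TPCA-1 lie above all TNFα libraries, Ndufaf7 lies highest in DMSO, and Cyc1 is highest in the marked library.

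The largest differences outside the calls carried wide errors. Atp5d, the δ subunit of the central stalk, was at 0.62 ± 0.29 (adjusted p 0.14) and Cox7a1 at 0.63 ± 0.44 (adjusted p 0.338). The lowest by complex were Ndufaf2 (-0.25 ± 0.25), Sdhaf3 (-0.15 ± 0.24), Uqcrc2 (-0.16 ± 0.13), Cox7b (-0.09 ± 0.18) and Atp5j (-0.23 ± 0.21), and none passed the test. Members of 1 complex had values of both signs with all 16 libraries, a difference that was not tested. Uqcrc1 was at 0.37 ± 0.22 and Uqcrc2 at -0.16 ± 0.13. Atp5a1, of the F1 head, was at 0.22 ± 0.10 and Atp5c1, the γ subunit of the central stalk, at -0.16 ± 0.10. Uqcrc2 read 63.2 CPM in TPCA-1 replicate 2. Without that library its mean was 99.0 CPM against 100.8 CPM in TNFα, and the lowest change in complex III was -0.09. Means without it were 105 against 89.8 CPM for Uqcrc1, 384 against 331 CPM for Atp5a1 and 312 against 341 CPM for Atp5c1. All 4 succinate dehydrogenase subunits were above 0 and uncalled, from 0.04 ± 0.11 for Sdhd to 0.21 ± 0.11 for Sdhc. Without replicate 2 it was 2 of 4, with Sdhb at -0.09 ± 0.12, Sdhd at -0.03 ± 0.11 and Sdhc at 0.27 ± 0.11.

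**Figure D5:**
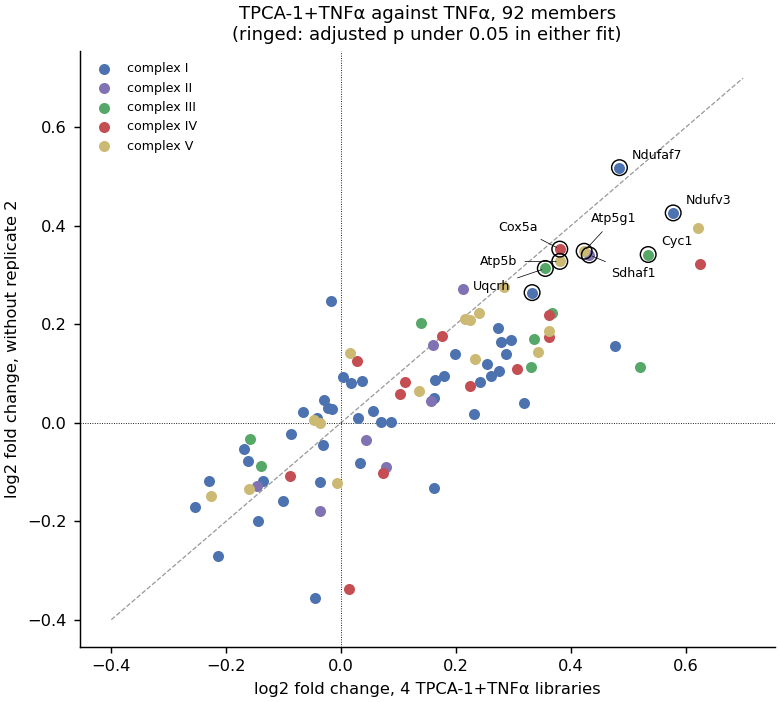
Log2 fold change of each member for TPCA-1 + TNFα against TNFα with all 16 libraries (horizontal axis) and without TPCA-1 replicate 2 (vertical axis); each point is 1 gene, ringed where called in either fit, and the diagonal marks equal values. The median over members is 0.15 with that library and 0.08 without it.

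Against DMSO, TPCA-1 + TNFα had 15 higher members and 1 lower, 16.3% and 1.09% of members against 14.8% and 15.5% of all genes. The median was 0.11 log2 (all genes 0.01). The largest calls were Cox5a (0.68 ± 0.10, adjusted p 7.55e-05), Cyc1 (0.66 ± 0.18), Atp5g1 (0.61 ± 0.11) and Atp5b (0.54 ± 0.13, adjusted p 0.00369). Cox5a was 1.60 times its DMSO level, and no TPCA-1 library of these 4 genes overlapped with DMSO. The others included Sdhaf1 (0.53), Uqcrq (0.47), Cox6b1 (0.46), Cox6a1 (0.44), Ndufa11 (0.42), Cox4i1 (0.40), Atp5e (0.37), Uqcrh (0.35), Atp5o (0.33) and Sdhaf2 (0.26). Sdhaf4 was lower, at -0.51 ± 0.17 (adjusted p 0.0317). By complex the higher calls were 2 of 45, 2 of 8, 3 of 9, 4 of 13 and 4 of 17.

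Without replicate 2, 11 members were higher and 2 lower (12.1% and 14.2% of all genes). Cox4i1, Cox6b1, Ndufa11, Uqcrq and Atp5e were no longer called. Cox4i1, an accessory subunit of complex IV, read 289, 301, 329 and 361 CPM in DMSO and 354, 578, 375 and 379 CPM with TPCA-1. Its edgeR adjusted p was 0.200 without that library. Uqcrfs1 (0.23) and, lower, Cox6a2 (-0.91 ± 0.29, adjusted p 0.0285) were then added. With the number as a block in that fit, 21 were higher and 3 lower (20.8% and 21.6% of all genes). Atp5o, of the peripheral stalk, had the tightest TPCA-1 values, 109, 113, 111 and 109 CPM, against 81.3 to 102 CPM in DMSO, and its call did not need that library (0.32, adjusted p 0.0377). A further gene named Atp5o shares 243 of its exon bases.

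The inhibitors, which were given at differing doses, also differed from each other. In TMP195 + TNFα against TPCA-1 + TNFα, 22 members were lower and 0 higher, 23.9% of members, against 12.6% and 13.1% of all genes; the median was -0.21 log2 (all genes 0.00). By complex 9 of 45, 2 of 8, 1 of 9, 4 of 13 and 6 of 17 were lower. Without TPCA-1 replicate 2 it was 13 lower and 1 higher, 14.1% and 1.09% of members, against 10.8% and 11.7% of all genes, with a median of -0.14. The 1 higher gene was Cox6a2 (1.08 ± 0.29, adjusted p 0.0132).

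Lower in both fits were Uqcrh (-0.59 ± 0.09, adjusted p 0.000146), Cox5a (-0.65 ± 0.10, adjusted p 0.000172), Ndufv3 (-0.72 ± 0.13), Atp5g1 (-0.56 ± 0.11), Ndufs8 (-0.72 ± 0.15), Sdhaf2 (-0.34), Atp5j2 (-0.36), Cox6b1 (-0.51), Atp5e (-0.47), Atp5o (-0.37), Ndufb7 (-0.66), Ndufaf7 (-0.40) and Sdhc (-0.31). Ndufb10, Ndufa11, Cox8a, Ndufaf8, Ndufa1, Cox6a1, Atp5mpl and Atp5b were among those called only with replicate 2. Without it Atp5b was at -0.33 against -0.37 with it, Ndufaf8 at -0.42 against -0.53, and Cox6a1 at -0.20 against -0.38. Ndufs8 read 51.6, 50.4, 54.3 and 64.7 CPM with TMP195 and 78.3, 114, 94.7 and 78.1 CPM with TPCA-1, with no overlap. Ndufb7, an accessory subunit of complex I, read 78.4 to 92.8 CPM against 107, 219.9, 114 and 109 CPM. Its change was -0.34 without replicate 2, against -0.66 with it.

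Against DMSO, TMP195 + TNFα had 2 higher and 6 lower members, 2.17% and 6.52% of them, against 13.6% and 13.9% of all genes, and a median of -0.03 log2. The assembly factors Ndufaf3 (0.32 ± 0.10, adjusted p 0.0274) and Ndufaf6 (0.39 ± 0.14, adjusted p 0.0488) were higher. Ndufaf7 (-0.58 ± 0.12), Ndufs8 (-0.55 ± 0.15), Cox7a2l, a supercomplex factor (-0.40 ± 0.12), Ndufv3 (-0.40 ± 0.12), Atp5j2 (-0.30 ± 0.10) and Cox7a1 (-1.25 ± 0.42) were lower. None of these 6 overlapped with DMSO, and Cox7a1 met the member minimum through its DMSO libraries. With the replicate number as a block, 2 rose and 10 fell (17.9% and 18.8% of all genes), and the added genes were Ndufb5 (-0.28, adjusted p 0.0327), Sdhc (-0.26, adjusted p 0.0107), Sdhaf4 (-0.44, adjusted p 0.00908) and Uqcrh (-0.24, adjusted p 0.0384). Cox7a2l read 72.4, 62.5, 78.4 and 63.5 CPM in DMSO and 58.7, 54.3, 50.8 and 46.1 CPM with TMP195.

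Of the 92 members 31 were called in at least 1 of the 6 comparisons and 61 in none. The share of all genes called in at least 1 comparison is not given here, so this count is not read as a result about the members. Several catalytic and core genes were among the 61. In complex I, Ndufs1 had means of 60.3 ± 4.67 CPM in DMSO, 55.5 ± 5.12 in TNFα, 54.7 ± 6.54 with TMP195 and 54.5 ± 8.67 with TPCA-1 (SD, n = 4). Ndufv2 had 128 ± 5.92, 129.9 ± 12.4, 115 ± 9.64 and 133 ± 13.2 CPM in the same order, and Ndufs3 73.4 ± 9.47, 74.1 ± 10.5, 69.1 ± 4.98 and 67.1 ± 5.45 CPM. Sdha, the flavoprotein of complex II, had 132 ± 15.7, 126 ± 10.9, 126 ± 9.02 and 140.1 ± 22.6 CPM. None of these 4 genes was called in any comparison. Uqcrb of complex III had 160.1 ± 37.9, 151 ± 42.3, 141 ± 35.5 and 137 ± 34.6 CPM. Cox5b of complex IV ran from 209 to 248 CPM in DMSO, 198 to 271 in TNFα, 198 to 252 with TMP195 and 216 to 280.2 with TPCA-1, which overlap, and Cox7a2 had 202 ± 48.1, 203 ± 43.6, 194 ± 22.8 and 214 ± 52.8 CPM. Atp5g3, a c-ring gene, ran from 223 to 279.8, 221 to 284, 216 to 269 and 269.7 to 337 CPM in the same order and was uncalled, while Atp5g1 was called in all 3 comparisons with TPCA-1. The inhibitory factor Atp5if1 is not named so in the annotation used and was not analysed here.

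For many members the replicate number went with more of the spread than the treatment did. Over all 16 libraries the median share of a member's sum of squares was 32.4% between groups and 29.9% between numbers, against 47.0% and 20.1% over all genes. Numbers exceeded groups there in 44 of 92 members, or 47.8%, against 27.8% of all genes. In the 12 libraries without the TPCA-1 group the median shares were 15.3% and 62.9% for members (40.3% and 35.7% for all genes). Numbers then exceeded groups in 72 of 92 members, or 78.3%, against 48.3% of all genes. This set has fewer groups than numbers, so the shares favour numbers by construction, for members and all genes alike. The group left out is also that of the comparisons with the most member calls. The clearest case, chosen after its values were seen, was Ndufs5, an accessory subunit of complex I, with 94.0% between numbers and 0.762% between groups. Its 8 libraries numbered 1 and 4 read 18.1 to 27.6 CPM and its 8 numbered 2 and 3 read 39.4 to 57.0 CPM, so the sets do not overlap while all 4 treatments do. The labels do not say what a number stands for.

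The mitochondrially encoded subunits, which complete the same complexes, gave no call in any of the 6 comparisons for the 9 of 13 tested. In edgeR 0 of the 9 had an unadjusted p under 0.05 for TNFα against DMSO and for each inhibitor against TNFα or TMP195 against DMSO, 1 did for TPCA-1 against DMSO, and DESeq2 called 0 as well. The block gave 2 lower for TMP195 against DMSO, for TPCA-1 against TNFα and for TPCA-1 against DMSO. Their sum was 35812 to 60252 CPM in TNFα and 26194 to 56968 CPM with TPCA-1, the lowest being replicate 2. Of 25 electron carriers and transporters, 5 rose and 2 fell with TNFα. Gpd2, the mitochondrial glycerol-3-phosphate dehydrogenase, rose by 2.01 ± 0.15 (from a mean of 35.9 to 145 CPM), Sqor, which feeds electrons from sulphide to ubiquinone, by 1.23 ± 0.11, and Coq8a, of ubiquinone synthesis, by 1.48 ± 0.25. Against TNFα alone, TPCA-1 had 3 higher and 2 lower, with Gpd2 at -1.56 ± 0.15, Sqor at -0.49 ± 0.10 and the uncoupling protein gene Ucp2 at 1.28 ± 0.21; without replicate 2 it was 1 higher and 2 lower. TMP195 had 0 of the 25 called in edgeR, 2 with an unadjusted p under 0.05 and 1 higher in DESeq2 and with the block.

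Of 39 tested assembly genes outside the naming rule, 2 rose and 1 fell with TNFα (4 and 3 with the replicate block). TPCA-1 against TNFα had 3 higher and 1 lower, led by Higd2a (0.59 ± 0.12), a factor of complex IV, with Coa5 at -0.39 ± 0.09 and Coa7 at 0.45 ± 0.14; without replicate 2, 1 was higher and 1 lower. TMP195 against TNFα had 0 called in edgeR and in DESeq2, and 2 with an unadjusted p under 0.05. Of 19 regulators of respiratory genes, Hif1a rose by 0.83 ± 0.22 with TNFα and Polg2, of mitochondrial DNA replication, fell by 0.94 ± 0.20. Against TNFα, TPCA-1 had 1 of the 19 called, the ribosomal RNA methyltransferase gene Tfb1m at -0.42 ± 0.15 (adjusted p 0.0488), a call absent without replicate 2 (adjusted p 0.0995), when Tfb2m, a mitochondrial transcription factor gene picked here from its values, was called higher at 0.39 (adjusted p 0.0349). TMP195 had 0 of the 19 called in edgeR and in DESeq2, and 1 with an unadjusted p under 0.05. Of 21 genes of pyruvate dehydrogenase and the citric acid cycle, 2 rose and 2 fell with TNFα (5 and 2 with the replicate block), namely Acod1, which makes itaconate, at 4.65 ± 0.31, Cs at 0.34 ± 0.11, Idh2 at -0.56 ± 0.12 and Suclg2 at -0.44 ± 0.12. TMP195 against TNFα called Idh2 higher (0.47 ± 0.12), and TPCA-1 called Acod1 lower (-2.57 ± 0.29), Idh3g higher (0.48 ± 0.10) and Ogdh higher (0.41 ± 0.12). Of 17 glycolysis genes 13 rose and 0 fell with TNFα, beside the 1 and 2 of 92 respiratory members; the difference between these lists was not tested. Slc2a1, the glucose transporter, rose by 1.32 ± 0.15, Slc16a3, which exports lactate, by 1.49 ± 0.26 and Pgk1 by 0.89 ± 0.12. Against TNFα, TMP195 called Pfkp higher (0.57 ± 0.14) and Pfkfb3 lower (-0.46 ± 0.12), and TPCA-1 called Hk2 (-0.58 ± 0.13) and Pfkfb3 (-0.50 ± 0.12) lower.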

How the data were processed

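RNA of 16 macrophage libraries was sequenced, and the authors deposited read counts per gene for each library, unstranded and for either strand. Reads were aligned with STAR 2.6.1d to mm10/GRCm38, per the submitters' processing notes, and the annotation release is not given in the sources used here. The column for the reverse strand was used as deposited, because the other strand held 3.19% to 3.72% of the reads. Per the file headers, reads that match several places or several genes are counted in rows of their own, which lowers genes with close copies. Of 54838 identifiers, 54809 matched GENCODE M21, and rows that name no gene were left out of library sizes.

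Counts were scaled by the trimmed mean of M-values (TMM) and tested with edgeR 4.0.16 in R 4.3.3 (quasi-likelihood test, all 16 libraries in 1 fit, 6 contrasts, Benjamini-Hochberg over 12612 genes). Levels are CPM on TMM-scaled library sizes, and levels per kilobase use the exons of the principal GENCODE transcript. Counts and floors of 3 reads cover counting error only. The fit was tested on simulated data before use. DESeq2 1.42.0 and limma 3.58.1 served as alternatives. Other alternatives changed the scaling, the filter, the strand, the groups fitted, the replicate block and the libraries, leaving each of the 16 out in turn. The replicate numbers come from the sample titles. Deviations from the group mean correlated above 0.1 in all 4 same-number pairs for DMSO with TNFα, DMSO with TMP195 + TNFα and TNFα with TMP195 + TNFα, but not in all pairs with TPCA-1 + TNFα. Over all groups 20 of 24 pairs did so.

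The members and gene lists were chosen with earlier results of these data known. Named genes are members called in any comparison, the largest rise and fall per complex in 3 comparisons, the highest and lowest level per complex, members chosen by role, and, for the other lists, up to 3 called genes with the smallest adjusted p; Ndufs5 was picked later, from its values. Promoters come from RefSeq (GRCm38.p6), which held a window for 75 members and none for 17. Some results of single genes are not reported here. A same-strand exon overlap with another gene was found for 5 members.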

Additional observations from a re-analysis of the deposited data

Results flagged for a closer look

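In each group of 4 libraries, the summed level of all members and of every complex, and the level of each of the 31 called members, were searched for 1 library far from the other 3, by Dixon's 95% criterion. Of 148 such groups 10 were picked out; chance alone picks out about 1 in 20. Replicate 2 of TPCA-1 + TNFα was the high library in 9 of the 10. Its summed level was 4051 CPM for complex I and 3916 CPM for complex IV. Cox4i1 read 578 CPM there, Cox6a1 754 CPM, Cox8a 495 CPM and Cox7a1 1.62 CPM. The complex I accessory genes Ndufa11, Ndufb10 and Ndufb7 read 211, 96.1 and 219.9 CPM. Of these 7 genes Cox6a1, Cox8a, Ndufa11 and Ndufb10 were called in the comparison of the inhibitors with that library and not without it, and Ndufb7 in both. This library also had 44.0% unmapped reads and 7489066 counted reads; the part of either in these levels was not tested. The remaining value was the summed level of complex II in DMSO replicate 3, at 768 CPM, against 698 to 705 CPM in the other DMSO libraries.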

How the results depend on the processing

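Of 58 member calls over the 6 comparisons, 17 were kept under all 25 alternatives, and none changed sign. Testing without a count filter lost 30 of the calls, fitting only the 2 groups compared 28, and leaving out TPCA-1 replicate 2, DMSO replicate 3 or TMP195 replicate 1 lost 18 each; DESeq2 and the replicate block lost 0. The number of members called, in the order TNFα against DMSO, TMP195 against TNFα, TPCA-1 against TNFα, TMP195 against TPCA-1, TMP195 against DMSO and TPCA-1 against DMSO, was 3, 0, 9, 22, 8 and 16. With 1 library left out the ranges were 1 to 5, 0 to 0, 4 to 13, 11 to 27, 3 to 10 and 8 to 21. The lowest counts came without TNFα replicate 3 (TPCA-1 against TNFα), TMP195 replicate 1 (against TPCA-1), DMSO replicate 3 (TMP195 against DMSO) and DMSO replicate 1 (TPCA-1 against DMSO). Limma with sample weights called 5, 3, 13, 23, 15 and 25. With no filter it was 2, 0, 3, 9, 5 and 11, and with only the 2 groups compared 3, 0, 2, 11, 7 and 9. Unstranded counts gave 1 for TNFα against DMSO. With the replicate number as a block the counts were 5, 2, 18, 37, 12 and 27, and with the block and without TPCA-1 replicate 2 they were 11, 8, 16, 35, 23 and 24. The block also raised the calls over all genes, for TPCA-1 against TNFα from 9.67% to 15.9% higher. It called 15.1% higher and 16.9% lower for TNFα against DMSO, 6.91% and 6.56% for TMP195 against TNFα, and 17.9% and 18.8% for TMP195 against DMSO. With replicate 2 also left out, TPCA-1 had 14.9% and 15.1% against TNFα, and 20.8% and 21.6% against DMSO. Shares for the other alternatives are not given. The member counts therefore describe how calls depend on the fit and are not read as results about the members. Not every same-number pair with a TPCA-1 library correlated above 0.1, and 3 of the 4 that did not were with replicate 2. For 15 of 16 libraries the mean correlation with the other groups was highest for libraries of their own number. The cause of these differences was not tested, beyond the larger number of genes tested without a filter and the smaller number of libraries where groups were left out. The median change of all members moved by less than the spread between libraries under every alternative for which it was computed. That spread was taken with TPCA-1 replicate 2 included, which widens it. The SD of the TPCA-1 library medians was 0.12 log2 with replicate 2 and 0.03 without. The spread therefore cannot judge the shift when that library is left out, from 0.15 to 0.08 in TPCA-1 against TNFα. Without TPCA-1 replicate 2, 3 medians of complexes moved further than their own spread, taken likewise. In TMP195 against TPCA-1 that of complex I went from -0.14 to -0.07 and that of complex II from -0.14 to -0.0047. In TPCA-1 against DMSO that of complex V went from 0.14 to 0.04. The lowest levels, such as Cox7a1 with 0.164 CPM in TMP195 replicate 1, lie at the level of 3 reads, where depth limits any comparison.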

Other observations

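Other values concern the choice of members. The 14 genes taken in by name that are not subunits had other medians than the 78 subunits in some comparisons. In TPCA-1 + TNFα against TNFα the median was 0.02 log2 over the 14 and 0.16 over the 78, and in TMP195 + TNFα against TPCA-1 + TNFα 0.09 and -0.22. In TNFα against DMSO it was 0.02 and 0.01. The difference between these sets was not tested. Counting subunits alone, 7 of 78 (8.97%, against 9.67% of all genes) were higher with TPCA-1 than with TNFα and 0 lower, and 19 of 78 (24.4%, against 12.6%) were lower with TMP195 than with TPCA-1. For complex II, whose 4 subunits are Sdha to Sdhd, all calls but Sdhc were assembly factors.

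Of the 75 members with a promoter window, 36 held a match to the NRF1 or the ETS motif.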
